A study of Mus musculus with 24 samples.

Results

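The neutrophil granule genes were a list of 10 genes picked by symbol: S100a8, S100a9, Ngp, Ltf, Mpo, Camp, Lcn2, Elane, Mmp8 and Retnlg. All 10 were among the 19175 genes measured by RNA-Seq in subcutaneous white adipose tissue (sWAT) of 24 mice aged 20 weeks, and 8 of them were among the 14982 genes with enough counts for testing. The groups were 6 female Gdf15-KO mice, 6 female wildtype (WT) mice, 6 male Gdf15-KO mice and 6 male WT mice. The Gdf15-KO mice lacked Gdf15 in the whole body, on a mixed C57BL/6/129/SvJ background, and the WT mice were their littermates. All mice were fed chow ad libitum and killed at lights off. The genes were chosen with values of these mice already known, high levels in single mice included, so the levels are described here with no test of the choice. The sWAT was used whole, so fewer cells of a type and less RNA per cell cannot be told apart. Gdf15 had 0 to 1 counts in female Gdf15-KO mice, against 7 to 17 in female WT mice, and 0 to 2 counts in male Gdf15-KO mice, against 14 to 31 in male WT mice, so each library matched its labelled genotype. The libraries summed to between 22521358 and 24500575 counts. The 10 adipocyte markers summed to between 10985 and 26552 CPM in every mouse. Levels are given as CPM, counts scaled to a common library size after TMM normalization.

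Neutrophils are short-lived white blood cells that reach tissues through the blood. They carry their antimicrobial proteins in granules that are filled in a fixed order while the cells mature in bone marrow: first the primary or azurophil granules, then the secondary or specific granules, then the tertiary granules. Transcription of the primary and secondary granule genes is therefore strongest in immature cells and has largely ceased in circulating neutrophils. S100a8 and S100a9 stay highly transcribed there. C/EBP factors, C/EBP epsilon among them, and PU.1 drive the granule genes in the marrow. Several of them are also transcribed outside neutrophils: Ltf and Lcn2 in glandular epithelium, and Lcn2 in fat cells and liver.

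The 10 genes lie on 6 chromosomes of GRCm39 in the GENCODE M39 annotation. S100a8 (chr3:90567118-90578128) and S100a9 (chr3:90599931-90603071) are 21803 bases apart. Camp (chr9:109676442-109678685), Ngp (chr9:110248815-110252086) and Ltf (chr9:110848339-110871835) share a stretch of chromosome 9, with 570130 bases between Camp and Ngp and 596253 bases between Ngp and Ltf. Mmp8 is on the same chromosome at chr9:7558457-7568487. Lcn2 is at chr2:32274645-32278264, Elane at chr10:79722081-79724051, Mpo at chr11:87684407-87695239 and Retnlg at chr16:48692547-48694862. The annotation has an overlapping gene on the opposite strand for Mpo (Gm11505) and for Mmp8 (Gm31751), and the sources used here do not say whether reads were counted by strand, so these values may include antisense reads. No other of the 10 genes overlaps an annotated gene.

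All 10 genes had an entry in a RefSeq promoter table (build GRCm38.p6), and each window matched GRCm39 once. The 250 bases before the start given in that table were searched on both strands for the C/EBP motif TTNCNNAA and the PU.1 motif GAGGAAGT. The C/EBP letters were in 7 of the 10 windows, against 36.8% of 32851 windows in the table, and the PU.1 letters in 4 of 10, against 2.44%. The windows of Lcn2 and Retnlg, each with 1 C/EBP match, began within an annotated exon, so they hold no bases before the first exon base. The other windows of the table were not checked for this. Both motifs were in the windows of S100a8 and Mmp8, and neither was in that of Camp. The windows of 4 genes are shown up to the first exon base annotated within the window, in the direction of transcription, with motif matches in capitals: the 3 genes with the highest CPM per kilobase in male WT mouse 5 (S100a8, S100a9 and Ngp) and Ltf, which was high in the same mouse and was also higher in females. They are S100a8 (chr3:90576128-90576284, plus strand), S100a9 (chr3:90603072-90603278, minus strand), Ngp (chr9:110248626-110248814, plus strand) and Ltf (chr9:110848110-110848338, plus strand).
S100a8 promoter: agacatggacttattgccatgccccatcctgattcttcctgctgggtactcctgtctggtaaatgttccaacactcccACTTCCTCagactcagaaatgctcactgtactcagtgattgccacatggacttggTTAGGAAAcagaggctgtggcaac
S100a9 promoter: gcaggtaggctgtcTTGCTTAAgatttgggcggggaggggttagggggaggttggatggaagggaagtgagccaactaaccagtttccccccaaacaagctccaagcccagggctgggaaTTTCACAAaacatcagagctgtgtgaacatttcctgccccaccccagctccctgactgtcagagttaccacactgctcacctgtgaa
Ngp promoter: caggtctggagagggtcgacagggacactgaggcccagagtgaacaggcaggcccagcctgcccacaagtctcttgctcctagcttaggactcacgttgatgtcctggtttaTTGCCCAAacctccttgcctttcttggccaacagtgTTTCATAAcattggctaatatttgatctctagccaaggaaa
Ltf promoter: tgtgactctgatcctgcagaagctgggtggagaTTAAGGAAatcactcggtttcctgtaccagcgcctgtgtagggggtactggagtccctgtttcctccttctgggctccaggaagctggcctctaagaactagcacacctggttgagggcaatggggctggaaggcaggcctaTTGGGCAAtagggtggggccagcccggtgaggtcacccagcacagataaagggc
The S100a8 stretch holds ACTTCCTC, the PU.1 letters on the opposite strand, and TTAGGAAA, a C/EBP match. The S100a9, Ngp and Ltf stretches hold 2 C/EBP matches each. The S100a8 stretch ends just before the start of the canonical transcript and lies in the first intron of a longer annotated transcript of the gene. A match to these letters is not evidence of a bound site.

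S100a8 and S100a9 encode the subunits of calprotectin, the most abundant protein of the neutrophil cytosol. S100a8 ranged from 0.322 to 2.86 CPM in female Gdf15-KO mice (median 0.732), and from 0.220 to 1.29 CPM in female WT mice (median 0.687). It ranged from 0.296 to 3.64 CPM in male Gdf15-KO mice (median 1.14), and from 0.578 to 27.5 CPM in male WT mice (median 1.08). The medians of the 4 groups were thus close, and the top of the male WT range was 1 mouse, male WT 5, since the next male WT mouse had 2.51 CPM. S100a9 had the same shape, with 0.485 to 2.78 CPM in female Gdf15-KO mice (median 0.774), against 0.441 to 1.42 CPM in female WT mice (median 0.644). In males S100a9 ranged from 0.186 to 5.43 CPM in Gdf15-KO mice (median 1.31), and from 0.733 to 30.0 CPM in WT mice (median 1.06). Male WT 5 was again the highest, and the next male WT mouse, number 2, had 3.63 CPM.

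**Figure D1:**
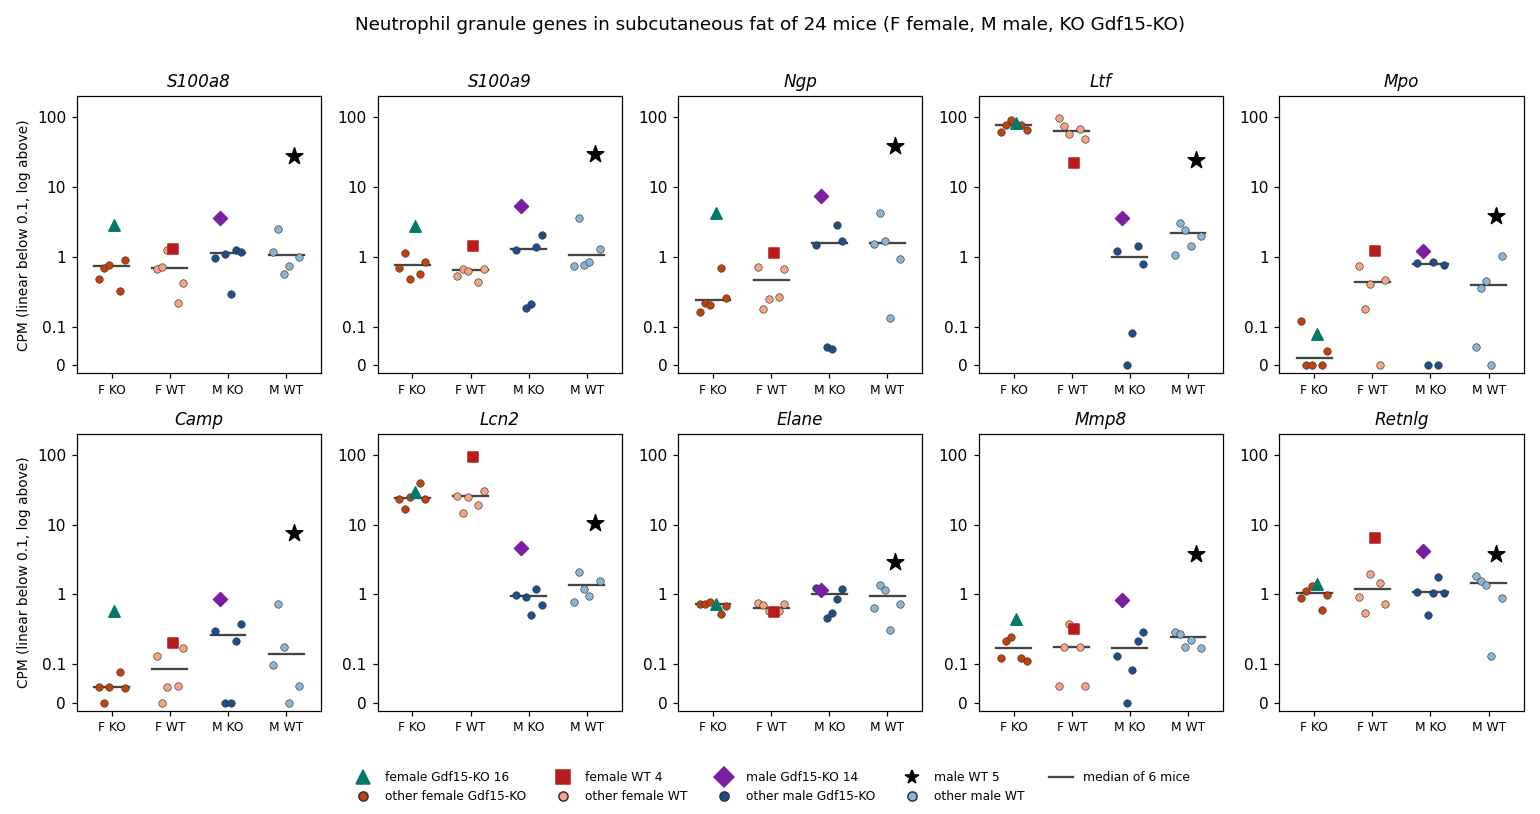
CPM of the 10 neutrophil granule genes in each of the 24 mice, on an axis that is linear below 0.1 and logarithmic above it, with a bar at the median of each group of 6. Male WT 5 (star) was the highest male WT mouse for all 10 genes, and Ltf and Lcn2 were high in every female.

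Mpo and Elane belong to the primary granules. Mpo encodes myeloperoxidase, which makes hypochlorous acid, and Elane encodes neutrophil elastase. Mpo was near the limit of detection, with 7 of 24 mice at 0 counts and 13 mice under 10 counts. It ranged from 0 to 0.122 CPM in female Gdf15-KO mice (median 0.0186), against 0 to 1.21 CPM in female WT mice (median 0.440). In males it ranged from 0 to 1.23 CPM in Gdf15-KO mice (median 0.786), against 0 to 3.81 CPM in WT mice (median 0.402). Elane was the steadiest of the 10 in females, with 0.523 to 0.768 CPM in Gdf15-KO mice (median 0.734) and 0.566 to 0.749 CPM in WT mice (median 0.646). In males it spread more, with 0.465 to 1.25 CPM in Gdf15-KO mice (median 0.999) and 0.306 to 2.88 CPM in WT mice (median 0.942). The nearest measured gene to Elane is Cfd, the adipsin gene, at 2617 bases.

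Ngp, Camp, Ltf, Lcn2 and Mmp8 belong to the secondary granules. Ngp encodes a cathelicidin-related protein of mouse granules. It ranged from 0.163 to 4.25 CPM in female Gdf15-KO mice (median 0.239), against 0.178 to 1.13 CPM in female WT mice (median 0.473). In males Ngp ranged from 0.0423 to 7.56 CPM in Gdf15-KO mice (median 1.59), against 0.131 to 38.7 CPM in WT mice (median 1.60). Camp, the gene of the cathelicidin antimicrobial peptide, was under 10 counts in 20 of 24 mice. It reached 0.572 CPM in female Gdf15-KO mice and 0.202 CPM in female WT mice, and 0.858 CPM in male Gdf15-KO mice and 7.58 CPM in male WT mice. Mmp8, neutrophil collagenase, was under 10 counts in 21 of 24 mice and reached 0.450 CPM in female Gdf15-KO mice, 0.372 CPM in female WT mice, 0.817 CPM in male Gdf15-KO mice and 3.77 CPM in male WT mice. Camp and Mmp8 were the members that did not pass the filter on low counts.

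Ltf and Lcn2 differed from the other members in that they were abundant in all 12 females. Ltf encodes the iron-binding protein lactoferrin, and Lcn2 encodes lipocalin 2, which binds bacterial siderophores. Ltf ranged from 61.2 to 91.7 CPM in female Gdf15-KO mice (median 77.3), against 22.3 to 98.5 CPM in female WT mice (median 62.6). In males it ranged from 0 to 3.55 CPM in Gdf15-KO mice (median 1.001), against 1.08 to 24.1 CPM in WT mice (median 2.21). The lowest female, female WT 4, was thus below the highest male, male WT 5. Lcn2 ranged from 16.5 to 38.95 CPM in female Gdf15-KO mice (median 24.1), against 14.7 to 92.8 CPM in female WT mice (median 25.3). In males Lcn2 ranged from 0.507 to 4.58 CPM in Gdf15-KO mice (median 0.961), against 0.782 to 10.7 CPM in WT mice (median 1.37), and no male reached the lowest female. Per kilobase of canonical transcript, the group medians of Ltf and Lcn2 in females lay between 22.6 and 28.0 CPM per kb, and those of the other 8 genes in any group were at most 2.44 CPM per kb, the value of Retnlg in male WT mice. Retnlg encodes resistin-like gamma, a secreted protein of mouse myeloid cells placed here with the late, tertiary granule genes. It ranged from 0.604 to 1.43 CPM in female Gdf15-KO mice (median 1.05), against 0.535 to 6.47 CPM in female WT mice (median 1.19), and from 0.512 to 4.21 CPM in male Gdf15-KO mice (median 1.07), against 0.131 to 3.77 CPM in male WT mice (median 1.47).

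High values in single mice were taken as a CPM of at least 3 times the median of the mouse's own group, with at least 10 counts. Where the group median lay under the level that 3 counts give, that level was used in its place. Of the 240 values of 10 genes in 24 mice, 25 were high, and they came from 5 mice. Male WT 5 was high for 9 of the 10 genes, male Gdf15-KO 14 for 8, female Gdf15-KO 16 for 4, and female WT 4 and male WT 2 for 2 each, while 19 mice had none. Over all 14982 genes tested, the share that was high by the same rule was 0.127% in male WT 5, 0.274% in male Gdf15-KO 14, 0.227% in female Gdf15-KO 16, 1.89% in female WT 4 and 0.374% in male WT 2. Since such values may have chosen the genes, nothing is read from the difference. Just inside the limit were Elane in male WT 5, at 3.06 times its group median, and S100a8 in male Gdf15-KO 14, at 3.18 times. Just outside it were Ngp in female Gdf15-KO 17, at 2.86 times, and Mpo in female WT 4, at 2.75 times.

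Male WT 5 had 913 counts of Ngp, 708 of S100a9, 648 of S100a8, 569 of Ltf, 252 of Lcn2, 179 of Camp, 90 of Mpo, 89 of Mmp8 and 68 of Elane. Relative to the male WT medians, Camp was 55.05 times, S100a9 28.4 times, S100a8 25.5 times, Ngp 24.1 times and Mmp8 15.5 times higher. Ltf was 10.9 times, Mpo 9.49 times, Lcn2 7.79 times and Elane 3.06 times the median. Retnlg, at 3.77 CPM, was the highest of the male WT mice but stayed under the limit. The mouse was thus high for genes of the primary and the secondary granules, and it had the highest level of all 24 mice for 7 of the 10 genes. The 10 genes summed to 152.8 CPM in male WT 5, against 4.77 to 19.8 CPM in the other male WT mice. Without Ltf and Lcn2 they summed to 118.0 CPM in this mouse, and the next mouse of the 24 was male Gdf15-KO 14 with 24.9 CPM.

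Male Gdf15-KO 14 was high for S100a8, S100a9, Ngp, Ltf, Camp, Lcn2, Mmp8 and Retnlg, with between 3.18 and 4.77 times the male Gdf15-KO median. Its Mpo (1.23 CPM) and Elane (1.14 CPM), the primary granule genes, were not high, at 1.56 and 1.14 times the median. Its Mpo was still the highest of its group, where the other mice reached 0.846 CPM. For Elane the other male Gdf15-KO mice reached 1.25 CPM. Female Gdf15-KO 16 was high for Ngp at 4.25 CPM, which was 17.8 times the median of its group, and for S100a8 at 3.91 times and S100a9 at 3.59 times. It had 14 counts of Camp, 4.67 times the level of 3 counts, while the other female Gdf15-KO mice had 0 to 2 counts. Its Ltf (83.7 CPM) and Lcn2 (29.6 CPM) lay within the range of the other female Gdf15-KO mice. Female WT 4 was high for Lcn2 at 92.8 CPM (3.67 times the median) and Retnlg at 6.47 CPM (5.44 times), the highest levels of both genes in any mouse. Its Ltf, at 22.3 CPM, was the lowest of the 12 females, so Ltf and Lcn2 went in opposite directions in this mouse. Male WT 2 was high for S100a9 and Camp, at 3.43 and 5.21 times the male WT median.

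**Figure D2:**
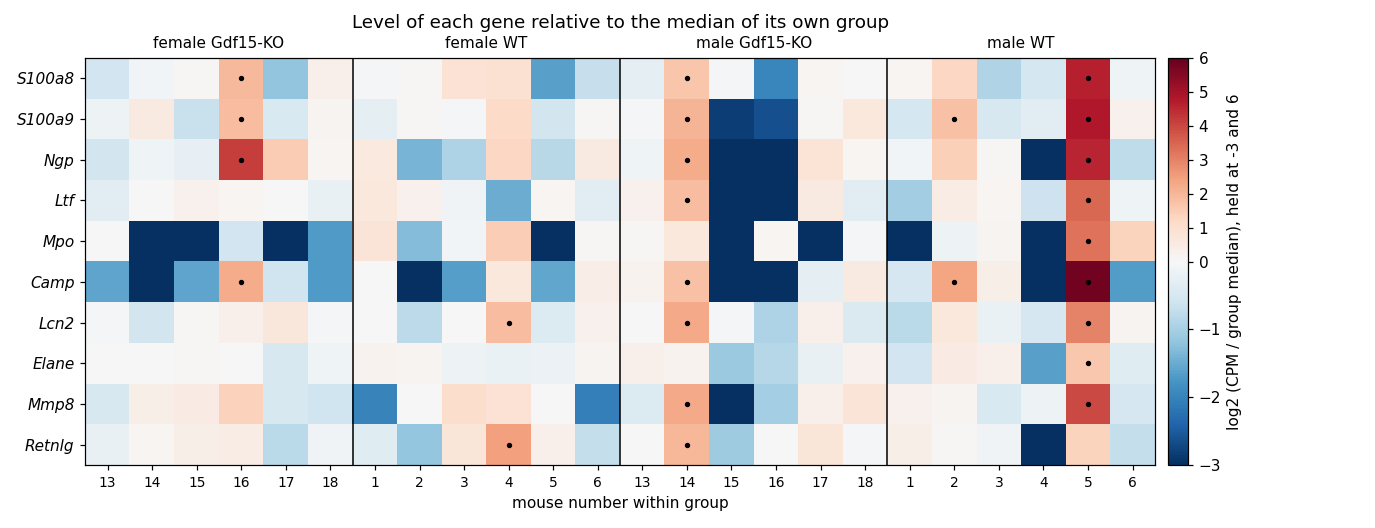
Level of each gene in each mouse as the log2 ratio of its CPM to the median of its own group of 6, or to the level of 3 counts where that is higher, with dots at the 25 high values and with values of 0 drawn at -3. Male WT 5 and male Gdf15-KO 14 were high for 9 and 8 of the 10 genes, and male Gdf15-KO 15 and 16 and male WT 4 were low for several.

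Low values also fell together in some mice. Male Gdf15-KO 15 had 1 count of Ngp and 0 counts of Ltf, Mpo, Camp and Mmp8, where a count of 0 allows up to 3 counts. Male Gdf15-KO 16 had 1 count of Ngp, 2 of Ltf, 2 of Mmp8 and 0 of Camp, but 20 counts of Mpo. Male WT 4 had 3 counts of Ngp, 3 of Retnlg and 0 of Mpo and Camp, but 33 counts of Ltf. The 10 genes summed to 3.26, 3.68 and 4.77 CPM in these 3 mice, the lowest sums of all mice. The SD of log2 CPM over the 6 mice had a median over the 8 tested members of 0.49 in female Gdf15-KO, 0.86 in female WT, 1.37 in male Gdf15-KO and 1.78 in male WT mice. Over all tested genes the same median was 0.17, 0.18, 0.19 and 0.18 in these groups. Elane in females (0.18 in Gdf15-KO and 0.17 in WT mice) and Ltf in female Gdf15-KO mice (0.21) had SDs near that of all genes. High levels in single mice were known when the genes were chosen, and several members had few counts (Mpo under 10 counts in 13 mice and Ngp in 10), so nothing is read from the difference from all genes.

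Other genes of the neutrophil lineage were read in the same mice from lists of markers. In male WT 5, 6 list genes outside the 10 members were high. Chil3, a chitinase-like protein of secondary granules and monocytes, had 9.36 CPM (5.74 times the male WT median), Cd177, a neutrophil surface protein, 5.21 CPM (9.91 times), and Fpr2, a formyl peptide receptor, 1.19 CPM (3.19 times). Ms4a3 and Fcnb, genes of granulocyte precursors, had 10 and 12 counts in male WT 5, against 0 to 1 counts in each of the other male WT mice. Ly6g, the defining surface marker of mouse neutrophils, had 14 counts in male WT 5, and 4 of the other 5 male WT mice were at 0 with 1 count in the remaining mouse. The receptors Csf3r and Cxcr2 of mature neutrophils were not high: Csf3r had 15.7 CPM in male WT 5 with a group range of 10.7 to 16.9, and Cxcr2 had 9.15 CPM with a group range of 2.83 to 9.15. The primary granule protease gene Prtn3 had 10.5 CPM in male WT 5 and 8.93 to 13.7 CPM over the male WT mice.

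Male Gdf15-KO 14 had 13 high list genes outside the members. Chil3 (7.76 CPM) and Cd177 (2.57 CPM) were 7.20 and 5.71 times the male Gdf15-KO median. Ms4a3, Fcnb and Ly6g were not high there. Instead, chemokines that attract neutrophils were high, with 70 counts of Cxcl5, 24 of Cxcl3 and 20 of Cxcl2, against 0 to 2, 0 and 0 to 5 counts in the other male Gdf15-KO mice. Also high were Ppbp (5.19 times the median), Clec4d (14.7 times), Clec4e (3.89 times), Il1b (3.98 times), the acute phase gene Saa3 (7.62 times), F10 (6.72 times), Siglecf (3.21 times) and Trem1 (3.07 times, at 10 counts). Female Gdf15-KO 16 was high for Chil3 (3.47 times), Olfm4 (4.13 times) and Fpr1 (3.25 times, at 10 counts, the least the rule allows). Fpr1 was the only high gene of the mature neutrophil markers there, and these markers summed to 0.819 times the median of its group. Female WT 4 had 7 high list genes outside the members: Olfm4 (5.29 times), 2 of the 12 genes of the mammary list, 3 skin genes and the muscle gene Myh1 (3.88 times). The mammary genes were Wfdc18 at 102.9 CPM (9.64 times) and Elf5 at 64.1 CPM (4.70 times). The skin genes were the keratins Krt5 at 297.1 CPM (4.49 times) and Krt14 at 163.1 CPM (3.62 times), and Krt71 with 22 counts, against 1 to 4 counts in the other female WT mice.

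Markers of other cells were set beside these values. The summed red cell markers were 1.41 times the group median in male WT 5, 1.06 times in male Gdf15-KO 14, 1.02 times in female Gdf15-KO 16 and 2.02 times in female WT 4. Male WT 5 and female WT 4 had the highest red cell sums of their groups. Platelet markers were 1.15, 1.62, 1.43 and 0.907 times the median in the same 4 mice, and male WT 5, male Gdf15-KO 14 and female Gdf15-KO 16 had the highest platelet sums of their groups. Macrophage markers were 0.948, 1.13, 1.43 and 0.937 times the median in these mice, T cell markers 1.08, 1.07, 0.858 and 0.929 times, and B cell markers 1.35, 1.37, 0.727 and 0.629 times. Monocyte markers, Chil3 among them, were 0.999, 1.11, 1.62 and 1.25 times the median in the same order. Skeletal muscle markers were low in both males, at 0.0556 times the median in male WT 5 and 0.0749 times in male Gdf15-KO 14, in groups whose muscle sums ran from 177 to 28374 CPM and from 61.6 to 12262 CPM. In female Gdf15-KO 16 and female WT 4 the muscle sums were 2.21 and 0.640 times the median. Skin markers were 4.004 times the median in female WT 4. Adipocyte markers were 1.05, 0.819, 1.01 and 0.665 times the median, in the same order as the monocyte markers. Male Gdf15-KO 14 and female WT 4 had the lowest adipocyte sums of their groups. Eosinophil and mast cell markers were 1.05, 1.33, 1.37 and 0.976 times the median in that order. The part of any of these in the granule gene levels was not tested.

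**Figure D3:**
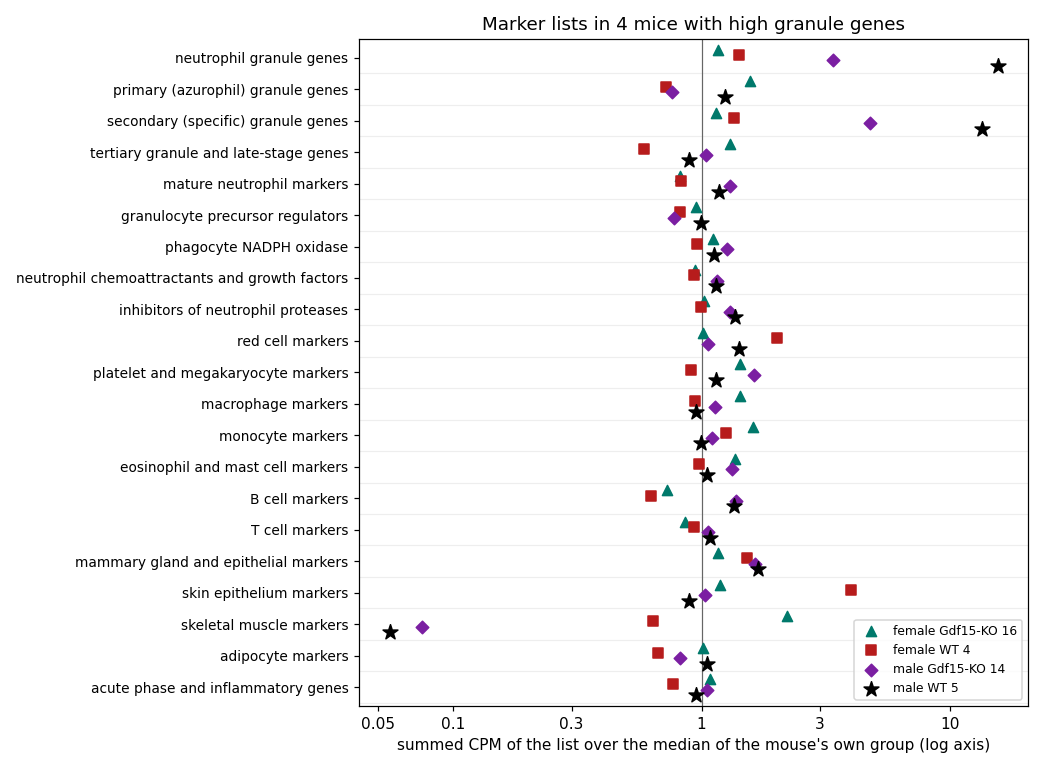
Summed CPM of 21 marker lists in 4 mice with high granule genes, each divided by the median of the mouse's own group, on a log axis. In male WT 5 the 10 granule genes were 15.6 times the median. The secondary granule list, with 5 of its 8 genes among them, was 13.5 times it. In the same mouse the primary granule list was 1.24 times it and the tertiary and late list 0.893 times. Mature neutrophil markers were 1.18 times and precursor regulators 0.991 times the median there. The macrophage and T cell lists lay between 0.858 and 1.43 times the median in the 4 mice.

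The study asked how loss of Gdf15 changes sWAT in each sex. In the edgeR quasi-likelihood test over all 14982 genes, none of the 8 tested members passed an adjusted p of 0.05 between Gdf15-KO and WT mice, in females or in males. The share of all genes that passed was 0.194% in females (0.02% higher and 0.174% lower in Gdf15-KO mice) and 0.2% in males (0.0267% higher and 0.174% lower). Before adjustment, 1 member had p under 0.05 in females and 3 in males, where 10.9% and 5.47% of all genes did. DESeq2 and limma-voom also called no member. For all 10 members the Gdf15-KO and WT ranges overlapped in both sexes, and the share of all tested genes whose ranges did not overlap was 1.03% in females and 0.481% in males, so the overlap is shared with nearly all genes. In females the lowest p was that of Mpo, with a log2 fold change of -3.49 ± 1.29 (SE, n = 6 each, adjusted p = 0.343 by edgeR), which rested on 0 to 3 counts in each Gdf15-KO mouse. The median log2 fold change of the 8 members in females was 0.20, beside -0.0050 over all tested genes. In males 7 of the 8 members had negative fold changes, with a median of -1.37 beside 0.0012 over all genes. The lowest values were those of Ltf at -2.25 ± 0.73 (adjusted p = 0.618 by edgeR), S100a8 at -1.99 ± 0.81 (adjusted p = 0.793 by edgeR) and S100a9 at -1.82 ± 0.84 (adjusted p = 0.872 by edgeR).

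These male differences turned on male WT 5. Without this mouse, 6 of the 7 negative fold changes became positive: S100a8 0.24, S100a9 0.29, Ngp 0.44, Mpo 0.69, Lcn2 0.19 and Elane 0.15, while Ltf stayed negative at -0.73. Without male WT 5 and male Gdf15-KO 14, an alternative chosen after seeing the data, Ltf was -1.48, and S100a8 was -0.33. The difference between the female and the male Gdf15-KO effect was tested as an interaction. No member and 0% of all genes passed, with 1 member (Ltf, log2 difference 2.56 ± 0.92 SE) and 3.48% of all genes at an unadjusted p under 0.05, and DESeq2 and limma-voom called no member either.

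**Figure D4:**
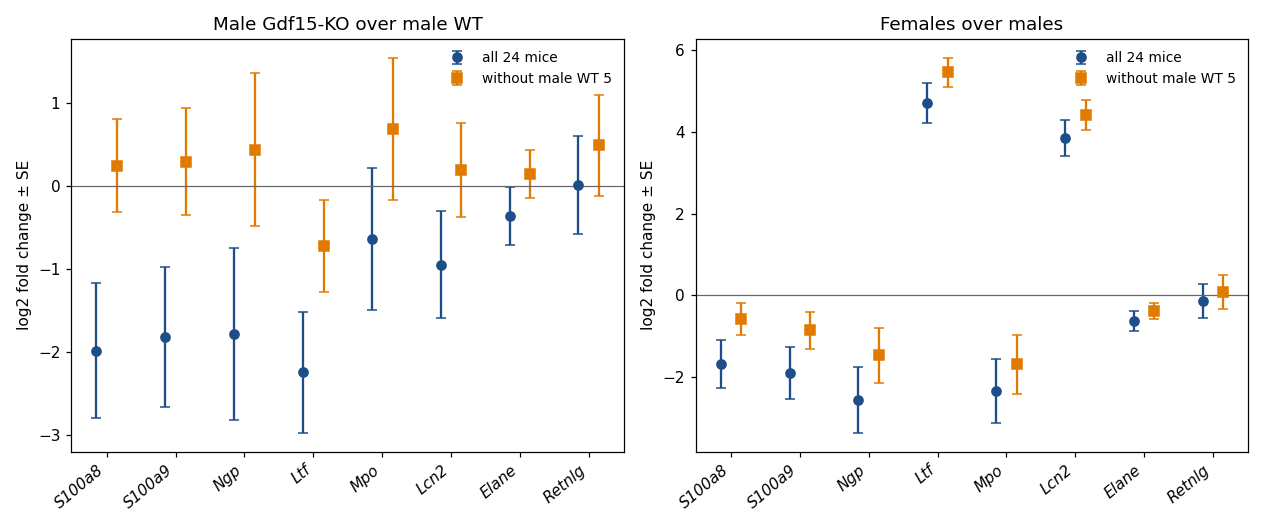
Fitted log2 fold changes with SE of the 8 tested members, for male Gdf15-KO over male WT mice (left) and females over males (right), from all 24 mice and without male WT 5. On the left, values between -2.25 and 0.01 became values between -0.73 and 0.69 without that mouse, and on the right Ltf and Lcn2 kept log2 fold changes over 3.8.

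Between females and males 44.2% of all genes passed the test, 23.4% higher and 20.9% lower in females, so a called member is not unusual here. Before adjustment, 51.9% of all genes and 7 of the 8 tested members had p under 0.05. After it the same number of members passed, in both directions. Ltf was higher in females, with a log2 fold change of 4.70 ± 0.49 (SE, n = 12 each, adjusted p = 3.70e-08 by edgeR), and so was Lcn2 at 3.85 ± 0.44 (adjusted p = 2.06e-07 by edgeR). The other 5 were lower in females: Ngp at -2.55 ± 0.80 (adjusted p = 0.0125 by edgeR), Mpo at -2.33 ± 0.78 (adjusted p = 0.0180 by edgeR), S100a9 at -1.89 ± 0.63 (adjusted p = 0.0171 by edgeR), S100a8 at -1.67 ± 0.60 (adjusted p = 0.0264 by edgeR) and Elane at -0.62 ± 0.25 (adjusted p = 0.0489 by edgeR). Retnlg had a log2 fold change of -0.14 ± 0.42 and did not pass. The calls of the 5 lower members depended on the mice and the method used. Without male WT 5 only Ltf (5.45) and Lcn2 (4.41) of the 8 passed, and Ngp at -1.46, Mpo at -1.68, S100a9 at -0.85, S100a8 at -0.57 and Elane at -0.38 did not. Without male Gdf15-KO 14 the calls of S100a8, S100a9 and Elane were lost, which left 4 called members. Elane lost its call in 19 of the 24 fits that left out 1 mouse, among them those without any 1 of the 12 females. With limma-voom none of the 5 lower members passed. None of them passed with a block by mouse number either, though nothing says that the numbers pair the mice. In Gdf15-KO mice alone S100a8, S100a9, Ngp and Elane did not pass and Mpo was not tested. Ltf and Lcn2 passed under every alternative in which they were tested, with adjusted p of at most 0.00426 and 0.00254. The fold in median CPM of females over males was 48.6 for Ltf and 22.9 for Lcn2, and for the other 8 members it lay between 0.164 and 0.854.

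Markers of mammary gland and epithelium shared the direction of Ltf and Lcn2 between the sexes. Of that list, 12 of the 12 genes, Ltf among them, were higher in females. Among the 12 females, female WT 4 had the highest sum of the list (1667 CPM) but the lowest Ltf (22.3 CPM). Without Ltf the other 11 genes summed to 764 to 999 CPM in female Gdf15-KO mice and 907 to 1645 CPM in female WT mice, against 3.77 to 5.88 CPM in male Gdf15-KO mice and 3.602 to 15.4 CPM in male WT mice. Elf5, a transcription factor of the mammary gland, was at 0 in 8 of 12 males and in no female. The part of these cells in the Ltf and Lcn2 levels was not tested. The other neutrophil lists were mixed, and are read beside the 23.4% of all genes that were higher and the 20.9% that were lower. Of the phagocyte NADPH oxidase genes, 4 of 5 tested were lower in females and 0 higher. Of the mature neutrophil markers 2 of 8 tested were lower and 0 higher, a share near that of all genes. The precursor genes had 2 of 6 higher and 2 lower, the tertiary and late granule genes 1 of 6 higher and 1 lower, and the chemoattractants 1 of 4 higher and 1 lower. Macrophage markers were lower in 5 of 10. In the secondary granule list, which shares 5 genes with the members, 3 genes were higher and 3 lower in females. Chil3 (log2 fold change -1.74 ± 0.45 SE, adjusted p = 0.00332 by edgeR) and Cd177 (-1.73 ± 0.53 SE, adjusted p = 0.0100 by edgeR) were lower, and Olfm4 was higher at 1.39 ± 0.55 (adjusted p = 0.0446 by edgeR). In the primary granule list 3 of 4 tested genes were lower in females, Prtn3 (-1.03 ± 0.19 SE, adjusted p = 0.000134 by edgeR) beside Mpo and Elane, and Prss57 had a log2 fold change of 0.03. None of the 21 lists held a gene that passed between Gdf15-KO and WT mice in either sex. Over all tested genes 0.194% passed in females and 0.2% in males, so the lists did not differ from genes at large in this.

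Genes that varied like the granule genes over the mice were found with a score, the mean over the 8 tested members of each member's log2 CPM, centred on its group mean and divided by its SD. Within groups, Pearson's r between the members ran from 0.40 to 0.89 over 28 pairs (median 0.65, 24 mice), and Spearman's rho from 0.19 to 0.80 (median 0.48). The genes were chosen with high levels in single mice known, so these values are description only. The median r was 0.52 without male WT 5. It was 0.41, with a range of -0.021 to 0.81, without the 2 mice with the highest score, male WT 5 and male Gdf15-KO 14. Outside the list, Cd177 (r = 0.86, rho = 0.77) and Chil3 (r = 0.84, rho = 0.75) were most like the score. They were followed by Ltbp2 (r = 0.79), Clec1b (r = 0.77), Fam180a (r = 0.77), H2aj (r = 0.76), Cd300c (r = 0.76), Clec4n (r = 0.75), Fancl (r = 0.75) and Ppdpf (r = 0.73). These r values describe 24 mice that share a tissue and an assay, and the members and these genes were measured in the same libraries. Without the 2 mice with the highest score, Ltbp2 (r = 0.75) and Cd300c (r = 0.72) were the 2 of these 10 genes still among the 10 most like it, while r fell to 0.66 for both Cd177 and Chil3, which were no longer among them.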

How the data were processed

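RNA-Seq of sWAT from 24 mice was analysed, with groups taken from the labels. Per the study's methods, reads were adapter trimmed, aligned to GRCm39 with Bowtie2 2.2.5 and summed per gene with RSEM 1.2.8. The deposited table holds the authors' expected counts for 19175 genes, not normalized, with 22521358 to 24500575 counts per library. No column lacked a sample.

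Expected counts were rounded. Low genes were removed by filterByExpr, given the groups (at least 10 counts, 15 in total), and the rest were scaled with TMM factors. The quasi-likelihood test of edgeR 4.0.16 in R 4.3.3 used all mice at once, with a mean for each group. A gene passed where its p, adjusted over 14982 genes by Benjamini-Hochberg, was under 0.05. SE is the log2 fold change divided by the root of F. log2 CPM used a prior count of 2. The labels give no batch, and nothing says that a mouse number shared by a female and a male marks a litter, so numbers were not paired. Littermates may share litters, which the model leaves out. The fit was tested on simulated data. No 2 libraries were duplicates. Counts under about 10 are limited by counting error.

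The members and lists were chosen with earlier results of these data known. Named were the members, the 10 genes most like their score, of each other list up to 4 genes with the smallest p or the highest level in a mouse called high, and Gdf15. Other high list genes of male WT 5, male Gdf15-KO 14, female Gdf15-KO 16 and female WT 4 were named after their values were seen. Alternatives were DESeq2 1.42.0, limma-voom (limma 3.58.1), other factors and filters, robust estimation, each sex or genotype alone, a replicate block, and leaving out each mouse. Promoter windows were searched in Python, and figures were drawn with matplotlib.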

Additional observations from a re-analysis of the deposited data

Results flagged for a closer look

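Within each group of 6 mice, the gap between the highest or lowest mouse and its nearest neighbour was divided by the range of the group. This ratio passed Dixon's 95% limit in 21 of the 40 sets of a gene and a group and in 8 of 40 on a log2(CPM + 0.1) scale, which was chosen after seeing the data. For normally distributed values, chance flags about 1 in 20 sets of genes picked without sight of their values. CPM of genes with few counts need not be so distributed, and the share over all genes was not computed. These genes were picked with high levels in single mice known, and the same mice recur in the sets, so the counts are descriptions and are not set against that share. Each mouse that stood apart was the highest of its group. Male WT 5 stood apart for 8 genes: S100a8 at 27.5 CPM, S100a9 at 30.0 CPM, Ngp at 38.7 CPM, Ltf at 24.1 CPM, Mpo at 3.81 CPM, Camp at 7.58 CPM, Lcn2 at 10.7 CPM and Mmp8 at 3.77 CPM. The nearest male WT mice had 2.51, 3.63, 4.26, 3.05, 1.03, 0.718, 2.11 and 0.293 CPM of these genes. Male Gdf15-KO 14 stood apart for S100a8 at 3.64 CPM, S100a9 at 5.43 CPM, Ngp at 7.56 CPM, Lcn2 at 4.58 CPM, Mmp8 at 0.817 CPM and Retnlg at 4.21 CPM. Female Gdf15-KO 16 did so for S100a8 at 2.86 CPM, S100a9 at 2.78 CPM, Ngp at 4.25 CPM and Camp at 0.572 CPM. Female WT 4 did so for S100a9 at 1.42 CPM, Lcn2 at 92.8 CPM and Retnlg at 6.47 CPM. S100a9 in female WT 4 was the 1 of these 21 values under 3 times its group median.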

How the results depend on the processing

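The members' fold changes kept their sign and their side of the threshold in 842 of 928 refits, 52 lost the call and 34 changed sign. Their size could change much more. The interaction of S100a8 went from 2.38 with all mice to 0.157 without male WT 5. Retnlg in females went from -0.925 to -0.0775 without female WT 4. For members never called, as between Gdf15-KO and WT mice, keeping the side of the threshold says little. No member was called between Gdf15-KO and WT mice in any of 24 alternatives in either sex, or of 35 for the interaction. Between females and males 7 members were called, against 1 with 10 counts required in every sample (where 1 member was tested), 2 with limma-voom, 4 in WT mice alone, 2 in Gdf15-KO mice alone, 2 without male WT 5 and male Gdf15-KO 14, and 3 without these and female WT 4 and female Gdf15-KO 16. Leaving out these sets of mice, and female WT 4 with female Gdf15-KO 16, was chosen after seeing the data. Leaving out each mouse gave 2 to 7 (2 without male WT 5, 4 without male Gdf15-KO 14). The highest count under any alternative was 8. The replicate block by mouse number gave 2. In 9 of 12 pairs of a female and a male with the same number, deviations from the group means correlated above 0.1, with a range of -0.560 to 0.396. For 4 of these females the male with the same number was the best match among males of that genotype. These values do not settle whether the numbers mark pairs. The numbers were not taken as pairs because nothing says that they mark a litter.

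Genes called in females were 29, against 89 with DESeq2, 18 with females alone in edgeR and 198 with females alone in DESeq2. In males 30 genes were called, against 53 with DESeq2 and 59 with males alone in DESeq2. Females against males gave 6625 genes, against 3113 in WT mice alone and 4317 in Gdf15-KO mice alone. High values were 25, against 11 at 5 times the group median. Of the 10 genes most like the score, 2 were shared without the 2 mice with the highest score.

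Leaving out each mouse, log2 fold changes in females ran from -0.26 to 0.61 for S100a8, -0.80 to 1.2 for Ngp and -0.56 to 0.18 for Lcn2. In males they ran from -2.54 to 0.24 for S100a8, -2.61 to 0.29 for S100a9, -2.68 to 0.44 for Ngp, -0.97 to 0.69 for Mpo, -1.74 to 0.19 for Lcn2, -0.55 to 0.15 for Elane and -0.55 to 0.49 for Retnlg. The interaction ran from -0.59 to 1.33 for Lcn2 and -0.0443 to 0.65 for Elane, and Retnlg between females and males from -0.56 to 0.14. Other changes of sign were Ngp in females with limma-voom (-0.0368) and Retnlg between females and males in WT mice alone (0.34). Without male WT 5 and male Gdf15-KO 14, Mpo (0.35), Elane (0.0578) and Retnlg (-0.0907) changed sign in males, and Retnlg between females and males (0.37). Without female WT 4 and female Gdf15-KO 16, S100a8 (-0.0329), Ngp (-0.42) and Lcn2 (0.15) changed sign in females. Without all 4 mice these were -0.0329, -0.42 and 0.15, with Mpo 0.36, Elane 0.0742 and Retnlg -0.0733 in males and Elane -0.0228 in the interaction. The cause of these changes was not tested beyond the mice left out. Camp and Mmp8 were fitted only without the filter, and counts under 10 in most mice limit both.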

Other observations

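Fpr2, a formyl peptide receptor of neutrophils and macrophages, was highest not in male WT 5 but in male WT 4, with 3.37 CPM against a male WT median of 0.372 CPM. Male WT 4 was among the mice with the lowest granule gene sums. Clec4d had 4.62 CPM in male Gdf15-KO 14, and the next of all mice was male WT 4 with 1.62 CPM. Hp, the haptoglobin gene, which is placed with the late granule genes but is also made by fat cells, had medians of 251 CPM in female Gdf15-KO and 252 CPM in female WT mice, against 1330.0 CPM in male Gdf15-KO and 1258 CPM in male WT mice, and was lower in females (log2 fold change -2.45 ± 0.14 SE). The values of Fpr2 in male WT 4 and of Clec4d and Hp were chosen after they were seen.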
